A study of Nothobranchius furzeri with 12 samples.

Results

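In the intestine of male turquoise killifish (Nothobranchius furzeri, the short-lived strain GRZ), 108 genes stood highest in old, fully fed fish by a rule. They were 0.424% of the 25475 genes in the count table. Their mean there was at least 1.5 times that of young adults and that of old fish that had fasted on alternate days. The fish were killed at 10 weeks (W10), at 20 weeks after feeding to excess throughout (W20 AL, ad libitum), or at 20 weeks after food on every other day from week 10 onwards (W20 IF, intermittent fasting, labelled diet restriction). All fish were wild type, kept at the same light cycle and temperature, and housed singly from the first signs of sexual maturation onwards. The first 10 weeks of feeding were common to the 3 groups. Poly(A) RNA of the intestine is analysed here in 4 libraries a group. The study speaks of whole intestines, but its RNA methods also state that the small intestine was dissected, so that the part taken is uncertain. The methods of the study describe more fish a group and a fasted sample that was set aside for its quality, and they do not tie that sample to any of these libraries. The fish at 10 and at 20 weeks were different animals, so that "higher with age" and "lower with fasting" stand for differences between groups and not for changes followed in a fish. The W10 fish were killed when the groups were split, before the others. The study does not give the hour of killing, or whether W20 IF fish were killed on a fed or a fasting day. The time of collection and the last meal thus cannot be told apart from age and from the fasting regimen.

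The gut epithelium of teleosts is folded, and it is renewed from dividing cells at the base of the folds. Intestinal transcripts respond to meals and to their absence, above all those for digestion, nutrient uptake, lipid handling and the peripheral circadian clock. Alternate-day fasting restricts food in time and not at each meal. In tissue RNA, a lower level of a gene can come from fewer cells that express it or from less RNA per cell. These cannot be told apart.

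The genes were chosen on CPM, the count of a gene divided by the total of its library and multiplied by 1000000. A gene was included when its mean over the 4 W20 AL libraries was at least 1 CPM and at least 1.5 times both the W10 mean and the mean of W20 IF replicates 1 to 3, and when its lowest W20 AL library lay above every W10 library and above those W20 IF libraries. Values of W20 AL against the other groups therefore describe the choice and are given without a test. W20 IF replicate 4 had no part in it. That library held 1512262 counts, where the other 11 held 23226098 to 26986542, and a gene without a count can be present in it at up to 1.98 CPM (3 counts of the total), against 0.111 to 0.129 CPM in the others. The genes carry Ensembl identifiers, and 0 of the 25475 matched the table of gene names used here. For this reason the genes are described mainly as a group, 4 of them are given by identifier without a function, and the tissue label could not be checked against marker genes.

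Several parts of the rule narrowed the table in turn. The level of 1 CPM in W20 AL was reached by 14946 genes. Of these, 305 were at least 1.5 times higher in W20 AL than in W10 without overlap of the libraries, and 545 stood in the same way above W20 IF. The 108 genes in both sets made up 35.4% of the first and 19.8% of the second, and the W20 AL libraries are common to both. The mirror image, with W20 AL lowest by the same limits, held 160 genes. Just inside the limit on the ratio, the smaller of the ratios to W10 and W20 IF was 1.501, 1.507 and 1.514, and just outside it was 1.497, 1.492 and 1.491. In 32 of the 108 genes the smaller ratio was under 1.6, and 43 further genes without overlap had a smaller ratio between 1.4 and 1.5. The set thus has no natural edge at the limit.

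**Figure D1:**
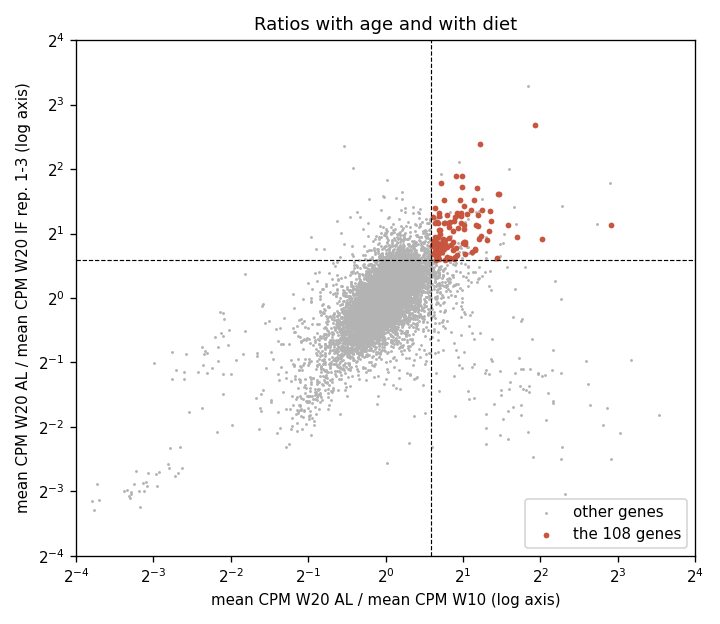
Each point is a gene with a mean of at least 1 CPM in W20 AL. The horizontal axis gives the ratio of the W20 AL mean to the W10 mean and the vertical axis its ratio to the mean of W20 IF replicates 1 to 3, both on log axes, with dashed lines at 1.5. The 108 genes (red) lie in the upper right corner, and grey points there are genes whose libraries overlapped. Of 14946 genes, 10 lie outside the axes or have a mean of 0 in a group.

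The group held rare and abundant transcripts. The mean level in W20 AL ran from 1.07 to 553 CPM with a median of 14.2 CPM, where the median of all 14946 genes at that level was 10.4 CPM. It was under 5 CPM in 30 genes, 5 to 20 CPM in 36, 20 to 100 CPM in 32 and above that in 10. The 10 most abundant genes supplied 54.1% of the summed W20 AL level. The rarest gene still had 26 counts per W20 AL library on average, and the lowest count in any W20 AL library was 17, so that none of the W20 AL values rested on single reads.

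Most of the differences were moderate in size. The ratio of W20 AL to W10 had a median of 1.79 (quartiles 1.62 and 2.04) and a maximum of 7.54. The ratio of W20 AL to W20 IF had a median of 1.92 (quartiles 1.71 and 2.38) and a maximum of 6.43. A ratio of at least 2 was seen against W10 in 34 genes, against W20 IF in 49 and against both in 20. It reached 2.5 against both in 4 genes and 3 against both in 1. The lowest W20 AL library exceeded the highest library of the other groups by a median factor of 1.16. In many of the genes the groups were therefore separate but adjacent.

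By library, the summed level of the 108 genes was 2218, 2468, 1952 and 2566 CPM in W10, 4390, 4507, 4268 and 4075 CPM in W20 AL, and 1838, 2337 and 2261 CPM in W20 IF replicates 1 to 3. The means were 2301 ± 275 CPM (SD, n = 4), 4310 ± 185 CPM (SD, n = 4) and 2145 ± 269 CPM (SD, n = 3). The genes took 0.408 to 0.451% of a W20 AL library and 0.184 to 0.257% of a W10 or W20 IF library of full depth. This sum follows the most abundant genes. The median gene, relative to its own W20 AL mean, stood at 0.489 to 0.582 in the W10 libraries and at 0.463 to 0.531 in W20 IF replicates 1 to 3. The rule set the same ceiling on both lower groups, so that part of this likeness follows from the choice.

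**Figure D2:**
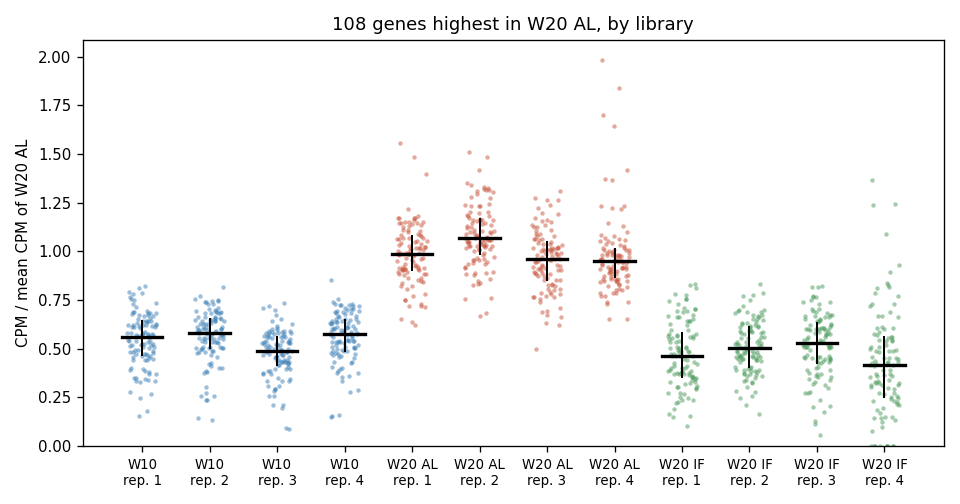
Points are the 108 genes in each of the 12 libraries, as CPM divided by the mean CPM of the gene in W20 AL. Thick bars are medians and thin lines run between the quartiles. The medians are 0.489 to 0.582 in W10, 0.948 to 1.07 in W20 AL and 0.463 to 0.531 in W20 IF replicates 1 to 3, and the median of replicate 4, which did not choose the genes, is 0.415.

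The libraries of a group did not contribute equally. Among the W20 AL libraries, replicate 2 was highest for 44 of the 108 genes (40.7%, against 32.7% of all 14946 genes at the level of 1 CPM). Replicate 4 was lowest for 37 of them (34.3%, against 27.5%). Among W10, replicate 3 was lowest in 56 genes (51.9%), and over all 14946 genes it was lowest in 31.1%. Among W20 IF replicates 1 to 3, replicate 1 was lowest in 58 genes (53.7%), against 27.2% of all genes at that level. The coefficient of variation between libraries had a median of 17.1% in W10, 15.6% in W20 AL and 23.5% in W20 IF over the 108 genes. Over all genes at that level the medians were 10.4, 10.7 and 13.5%. In each group the median was thus higher over the 108 genes than over all genes at that level, and both medians were highest in W20 IF. The same libraries chose the genes, and what the level of the genes contributes to this was not tested.

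Whether the old fasted fish stood at the level of the young adults is the comparison that the rule did not use directly, although it capped both groups below W20 AL. W20 IF replicates 1 to 3 were compared with W10 by edgeR's quasi-likelihood test in a model of the 11 deeper libraries, with Benjamini-Hochberg adjustment over the 18277 genes that passed a filter on low counts. All of the 108 genes passed this filter, which they could do through W20 AL alone. Calls used the limits of the study, an adjusted p-value under 0.05 together with a log2 fold change beyond 1 in either direction. By these limits 1.93% of all genes tested were called, and 2 of the 108 genes were (1.85%). Of these, 1 was higher in W20 IF (background 1.66%) and 1 was lower (background 0.268%). With the adjusted p-value alone, 7 of the genes passed (6.48%), where the background was 5.01%. Among them 6 were lower in W20 IF (background 2.25%) and 1 was higher (background 2.76%). At an unadjusted p-value under 0.05 there were 22 genes (20.4%, background 19.2%). With these 11 libraries and this filter the shares over both directions lie near the background. The rule limited the calls in advance, so that this likeness cannot decide whether the 108 genes differ from the table. By the rule, a call higher in W20 IF needs a ratio of W20 AL to W10 of about 3 or more. Only 5 genes had a ratio of at least 3. A call lower needs a ratio of W20 AL to W20 IF of about 3 or more, and 9 genes had at least 3. The split between directions rests on 7 genes, and the ceiling set by the rule bears on it. A gene that was not called is not shown to have been equal in both groups. The median standard error of the log2 fold change was 0.21.

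In size, the log2 fold change of W20 IF against W10 had a median of -0.11 (quartiles -0.34 and 0.11, range -1.15 to 1.78) over the 108 genes and of 0.00 over all genes tested. It was below 0 in 68 genes (63.0%) and above 0 in 40, and 49.5% of all genes tested were below 0. All W20 IF libraries lay below all W10 libraries in 9 genes (8.33%, background 8.25%) and above them in 2 genes (1.85%, background 8.06%), and in the remaining 97 the groups overlapped. The ceiling set by the rule bears on these values too. The number of called genes depended on a W20 IF library. Without W20 IF replicate 1 it was 5 of the 108 (4.63%), 3 of them higher and 2 lower, where 1.48% of all genes tested were called, so that in this model the share was above the background. Without W20 IF replicate 2 or W10 replicate 1 it was 3 (2.78%), against 1.77 and 1.92% of all genes. Without W10 replicate 2, 227 genes of the whole table (1.25%) were called in place of 353, and 2 of the 108 (1.85%).

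**Figure D3:**
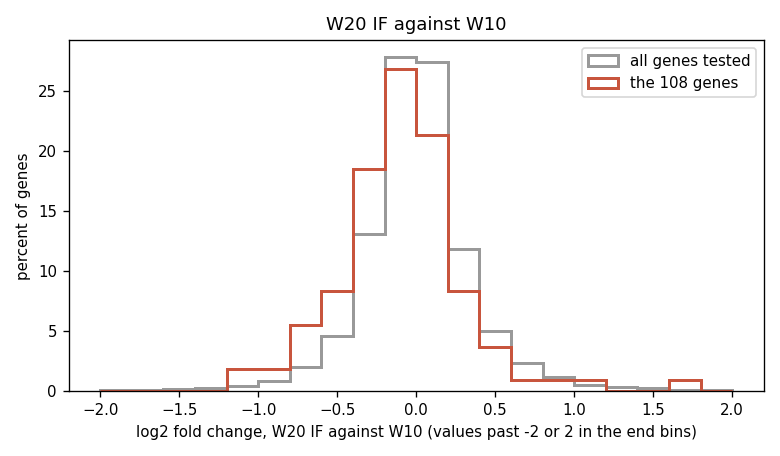
Percent of genes by log2 fold change of W20 IF replicates 1 to 3 against W10, for the 108 genes (red) and for all 18277 genes tested (grey), in bins of 0.2. Values beyond the axis are counted in the end bins. Both distributions centre near 0, with medians of -0.11 and 0.00, and the 108 genes have more of their values between 0 and -1.

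The same can be read gene by gene as the part of the difference between W20 AL and W10 that was still there under fasting, where 0% is the W10 mean and 100% the W20 AL mean. The median was -10.3% (quartiles -25.4 and 8.27%). In 72 genes the W20 IF mean lay within 25% of this span on either side of W10. In 27 genes it lay further below W10, down to -81.2%. In 9 genes more than 25% of the span was left, up to 44.9%. The rule set a ceiling on these values well below 100%. The smaller the ratio of W20 AL to W10, the less of the span could be left. With a median ratio of 1.79, many of the genes could not have had more than 25% left. The median and the split at 25% thus follow in part from the choice. These figures are a description, and they cannot show how far fasting reversed the difference.

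The 2 called genes lay on opposite sides of W10 in this measure, and they were singled out after their values had been seen. ENSNFUG00015009075 had 9.20, 8.04, 5.65 and 8.79 CPM in W10, 58.7, 66.3, 61.6 and 52.2 CPM in W20 AL, and 24.7, 26.7 and 30.0 CPM in W20 IF replicates 1 to 3. The 3 groups did not overlap, and the fasted fish stood between the others. Its ratio of W20 AL to W10 was 7.54, the highest of the 108 genes, and 37.1% of that difference was left under fasting. The log2 fold change of W20 IF against W10 was 1.78 ± 0.14 (standard error, edgeR, adjusted p = 4.08e-05). W20 IF replicate 4 went against the other fasted libraries. It had 8.60 CPM from 13 counts, within the range of W10. With that library in the model, the log2 fold change was 1.65 (adjusted p = 0.00151, same edgeR test).

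ENSNFUG00015006976 showed the reverse. It had 23.8, 23.1, 19.1 and 21.6 CPM in W10, 35.8, 38.2, 38.3 and 31.8 CPM in W20 AL, and 8.52, 10.9 and 11.9 CPM in W20 IF replicates 1 to 3. Its fasted fish lay below the young adults without overlap, and replicate 4, with 8.60 CPM, lay among the other fasted libraries. The W20 AL mean was 1.64 times that of W10 and 3.45 times that of W20 IF. The log2 fold change of W20 IF against W10 was -1.06 ± 0.12 (standard error, edgeR, adjusted p = 0.000666). Without W20 IF replicate 1 it was -0.91 (adjusted p = 0.00138, same edgeR test), which is inside the limit on the fold change.

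By the rule for naming genes, the most abundant gene and the gene with the largest smaller ratio are also given. The most abundant was ENSNFUG00015001521. Its level was 268, 378, 229 and 312 CPM in W10, 581, 604, 562 and 467 CPM in W20 AL, and 232, 245 and 221 CPM in W20 IF replicates 1 to 3. W10 and W20 IF overlapped, and W20 AL was separate from both, with means of 297 ± 63.7 CPM (SD, n = 4), 553 ± 60.1 CPM (SD, n = 4) and 233 ± 11.9 CPM (SD, n = 3). The log2 fold change of W20 IF against W10 was -0.34 ± 0.14 (standard error, edgeR, adjusted p = 0.182). Replicate 4 had 180 CPM from 272 counts, the lowest of all libraries.

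The gene with the largest smaller ratio was ENSNFUG00015019646, a rare transcript. It had 10, 9, 3 and 17 counts in W10, 39, 43, 17 and 40 counts in W20 AL, and 9, 6 and 2 counts in W20 IF replicates 1 to 3. In CPM the means were 0.373 ± 0.212 (SD, n = 4), 1.42 ± 0.497 (SD, n = 4) and 0.221 ± 0.135 (SD, n = 3), so that W20 AL was 3.81 times W10 and 6.43 times W20 IF. W20 AL replicate 3, at 0.706 CPM, was only 1.11 times the highest W10 library at 0.639 CPM. W20 IF replicate 4 held 2 counts, which is under the limit of 3 and does not place the gene. With these 2 counts averaged in, the ratio of W20 AL to W20 IF was 2.86.

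**Figure D4:**
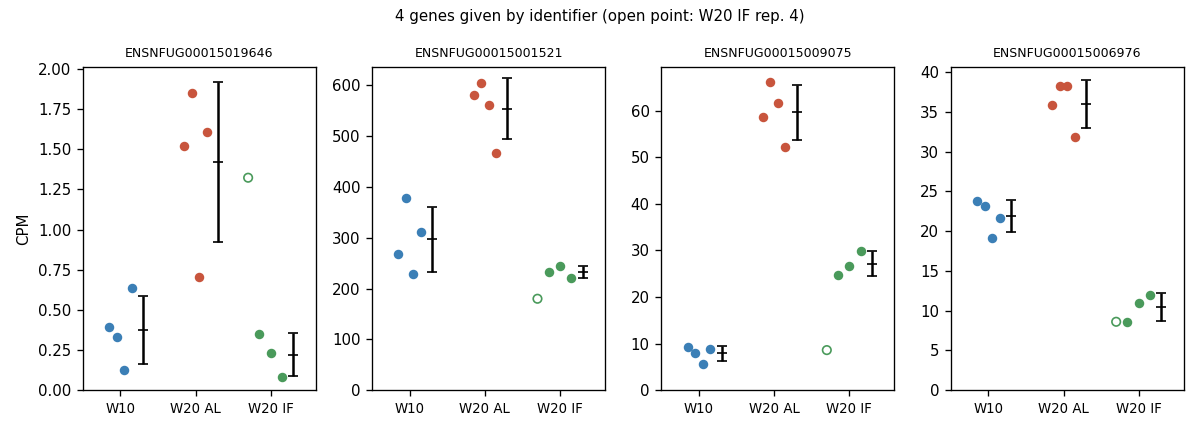
CPM in each library of the 4 genes given by identifier. Filled points are the libraries used for the choice, bars are their mean and SD, and the open point is W20 IF replicate 4. Among the filled points, W20 AL lies above both other groups in each panel, as the choice required. ENSNFUG00015009075 has 24.7 to 30.0 CPM in W20 IF replicates 1 to 3, above W10, and its open point, at 8.60 CPM, lies within W10. ENSNFUG00015006976 has 8.52 to 11.9 CPM in the same replicates, below W10, and the open point of ENSNFUG00015019646, at 1.32 CPM from 2 counts, lies within W20 AL.

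W20 IF replicate 4 allows the level under fasting to be looked at in a library that did not choose the genes, at low depth. In it, 98 of the 108 genes (90.7%) were below the lowest W20 AL library. The background is high, since 51.9% of all 14946 genes at that level were below it too. Among the 197 genes that met the age conditions and were not in the set, the share was 69.0% (136 genes). The W20 AL libraries entered both the choice and this count, so that part of the excess follows from the choice. In 50 genes replicate 4 was below every W10 and W20 IF library used for the choice, in 43 it was within their range, in 5 between them and W20 AL, in 9 within the W20 AL range, and in 1 above it. These ranges were not counted over all genes, so that the 50 cannot be read as a trait of the set. They also do not place every gene. The lower quartile of the counts of the 108 genes in replicate 4 was 2, under the limit of 3 counts. The 1 gene above the W20 AL range had 2 counts there. For 9 of the genes, all among the 50, replicate 4 had no count and gives only the upper limit of 1.98 CPM. Among the 70 genes for which the W20 AL mean would give at least 10 counts at that depth, 66 were below the lowest W20 AL library (94.3%), against 56.3% of all 9224 genes that passed the same limit. Relative to the W20 AL mean, replicate 4 had a median of 0.415 over the 108 genes and of 0.866 over all genes at that level. That library was thus low for many genes, and lower for these. What its depth contributes to this was not tested beyond these values.

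**Figure D5:**
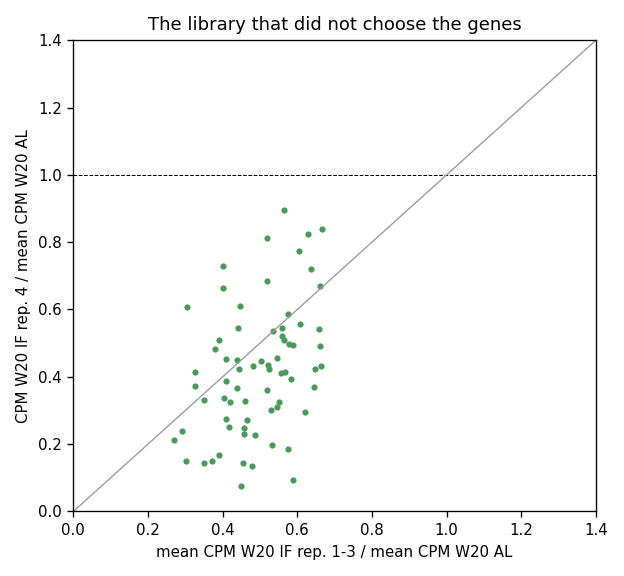
The 70 genes with at least 10 counts to be awaited in W20 IF replicate 4 at the W20 AL level. The horizontal axis is the mean CPM of W20 IF replicates 1 to 3 and the vertical axis the CPM of replicate 4, each divided by the W20 AL mean. The dashed line is the W20 AL mean and the grey line marks equal values. No gene reaches the dashed line, and the values of replicate 4 run from 0.0770 to 0.896 with a median of 0.419. The genes were chosen for a high W20 AL mean, so that this follows in part from the choice. It was not counted over all genes.

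Both the genes of the set and their number depended on the libraries. With W20 IF replicate 4 counted in its group, 108 genes met the rule again, of which 96 were of the original 108 (88.9% of each list). With each of the 11 libraries left out in turn, 98 to 139 genes met it, and 88 to 108 of the original genes were among them. Leaving out a library makes the condition on overlap easier to meet. An original gene can then be lost only through the limits on level and ratio, and further genes can enter. The number of genes kept thus follows in part from the rule. The fewest were kept without W20 AL replicate 2 (88 genes), the library in which the genes were most often highest. With library sizes scaled by TMM (trimmed mean of M-values) in place of totals, 111 genes met the rule, 104 of them of the original set.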

How the data were processed

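The authors prepared directional poly(A) libraries from single fish, sequenced pairs of 75 bp reads, used Trimmomatic for trimming and STAR for mapping to the Ensembl-annotated genome Nfu_20140520, and deposited featureCounts counts per gene, unnormalized, in 1 column a library. Program versions, the strand setting and the treatment of reads with several matches are not given in the sources used here, so that counts of near-identical copies and overlapping genes are uncertain. All 12 columns were mapped to samples by their library names.

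CPM are counts over library totals. The test was edgeR 4.0.16 (limma 3.58.1, R 4.3.3) with TMM factors, filterByExpr (minimum count 10, minimum total 15) and glmQLFit and glmQLFTest with robust estimation, in a model with a mean for each group over 11 libraries, without W20 IF replicate 4. On simulated data, 65% of 100 genes given a log2 fold change of 1 passed the adjusted p-value under 0.05 alone. Of 100 genes given a log2 fold change of 2, 94% passed, and 11 unchanged genes passed as well. Each standard error was derived from the fitted log2 fold change and its F statistic. Alternatives were DESeq2 1.42.0, other scalings, filters and limits, a replicate block, and libraries left out. Values of the named genes under other scalings, and replicate 4 with W20 AL libraries left out, were added after seeing the data. Of 18 pairs of libraries of a group, 0 were identical, and chi-square per degree of freedom was at least 10.2. P-values set a difference between groups against the spread between the fish sampled. That spread was estimated over the 3 groups and moderated across genes. P-values do not cover differences in collection between the groups.

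The genes, the gene lists and the tests were chosen with earlier results of these data known. Named genes were to be the most abundant gene and the gene with the largest smaller ratio, where no table gives names. For this reason 12 lists of pathway genes, 12 lists of cell type markers and a search of promoters for motifs could not be applied. Plots and tables were made in Python 3.11.15 (matplotlib 3.10.9).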

Additional observations from a re-analysis of the deposited data

Results flagged for a closer look

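W20 IF replicate 4 was far below replicates 1 to 3 in its total of 1512262 counts and in the number of genes with a count, 17059, where the others had 22563 to 22701. By Dixon's ratio for groups of 4, both values lay past the 95% critical value. The test was made on 21 groups of 4 values (totals, genes with a count, the summed level of the 108 genes and the 4 genes given by identifier), and chance passes this limit in about 1 in 20 groups. The number of genes with a count follows depth. The summed level of the 108 genes in that library, 1656 CPM, did not pass the limit.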

How the results depend on the processing

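The size of the set followed the limits. With a fold of 2 it was 20 genes, and with overlap of libraries allowed 175. With a level of 5 CPM it was 78, and leaving out single libraries, which eases the condition on overlap, gave 98 to 139. Of the 108 genes, 2 were called between W20 IF and W10 in the model used, with all 12 libraries, RLE size factors, DESeq2, no filter, at least 10 counts in each library (102 of the 108 tested) and only the 7 libraries compared (107 tested). Without a limit on the fold change 7 were called, and with a library left out 2 to 5. For the whole table, 353 genes were called, 441 with DESeq2, 135 with at least 10 counts in each library, 916 without a limit on the fold change, and 227 to 349 with a library left out. As shares of all genes tested, these were 1.93, 1.79, 0.854 and 5.01%, and 1.25 to 1.92% with a library left out. The share was 1.66% with all 12 libraries, 1.89% with RLE size factors, 1.58% with no filter and 1.52% with only the 7 libraries compared. Of the 108 genes, 1.85% were called in the model used. With at least 10 counts in each library it was 1.96%, above the background of 0.854%, and rests on 2 genes. The median log2 fold change of the 108 genes was below 0 in all 15 alternatives (-0.17 to -0.04). The alternative without a limit on the fold change is the same fit and repeats its median of -0.11. The ceiling set by the rule bears on this sign in every alternative. These alternatives share the chosen genes and most of the libraries, so that they are not independent of each other. Deviations from the group means correlated by -0.15 to 0.10 between libraries of different groups with the same replicate number. Between libraries with different numbers the range was -0.14 to 0.22. These values gave no sign that replicate numbers pair the libraries. With the replicate block, 2 of the 108 genes (1.85%) and 330 of the table (1.81%) were called. W20 IF replicate 4 was below the lowest W20 AL library in 94 genes with TMM scaling and in 98 to 100 with a W20 AL library left out. Leaving out a W20 AL library cannot lower this count, since the lowest of fewer libraries can only stay or rise. The range of 98 to 100 is therefore no check of it. The lists of genes and the promoter motifs were not run. Depth limits what replicate 4 shows of genes under 1.98 CPM.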
